A study of Mus musculus with 6 samples.

Results

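The 10 genes described here encode scavenger receptors and their close relatives: Marco, Msr1 and Colec12 of class A, Cd36, Scarb1 and Scarb2 of the CD36 family, the stabilins Stab1 and Stab2, the mannose receptor Mrc1, and the secreted protein Cd5l. They were chosen by name, with Marco included because its level was known to differ between the genotypes in these data. The array carried 12 probes for them, out of 55681 probes and 20018 named genes in all. The samples were 3 Bach2 knockout mice, all male, and 3 wild-type mice, among which replicates 1 and 2 were male and replicate 3 female. Every mouse was C57BL/6 and aged 8 to 9 weeks, and gave 1 single-colour array. The cells were splenic red pulp macrophages isolated by flow cytometry. Neither the sort markers nor the form of the Bach2 allele is given in the sources used here.

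Scavenger receptors are surface proteins that bind modified lipoproteins, microbes and debris from dying cells, and deliver them to endosomes and lysosomes. Macrophages of the spleen use them in clearing particles from blood. Class A members are trimers with a collagen-like stem, in Marco and Msr1 tipped by a cysteine-rich scavenger domain. CD36 family members are hairpin-shaped proteins anchored at both ends, and the stabilins are long endocytic receptors best known from sinus endothelium. In the mouse spleen, Marco is classically a marker of marginal zone macrophages. Bach2 is a transcription repressor that pairs with small Maf proteins on Maf recognition elements, which contain the letters TGCTGA at each end.

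RefSeq promoter windows, running from 250 bases before to 50 bases after a gene start, were at hand for 7 of the 10 genes, with none for Msr1, Scarb1 or Colec12. The upstream parts of 2 of them are shown, Marco because its RNA differed most clearly by genotype, and Cd5l because its window held a pair of Maf core sites facing each other. Both are in build GRCm38.p6: Marco at chr1:120505025-120505274 on the minus strand and Cd5l at chr3:87357631-87357880 on the plus strand. Capitals mark TGCTGA and its reverse complement with 2 free bases between them, and no searched motif lay in the Marco stretch.
Marco: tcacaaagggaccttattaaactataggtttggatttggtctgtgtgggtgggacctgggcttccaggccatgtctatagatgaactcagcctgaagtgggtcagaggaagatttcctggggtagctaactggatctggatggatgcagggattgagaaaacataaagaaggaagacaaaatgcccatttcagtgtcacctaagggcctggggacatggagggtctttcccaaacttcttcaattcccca
Cd5l: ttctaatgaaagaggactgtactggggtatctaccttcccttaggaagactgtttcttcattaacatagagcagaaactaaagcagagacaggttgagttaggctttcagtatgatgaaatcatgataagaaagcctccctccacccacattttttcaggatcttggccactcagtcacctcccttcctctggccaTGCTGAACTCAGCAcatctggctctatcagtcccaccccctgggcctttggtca
In Cd5l the match TGCTGAACTCAGCA began at position -54 from the gene start. This motif, looked for only after the sequence had been seen, occurred in 2 of 32851 promoter windows (0.00609%), and the form with 1 free base between the sites also occurred in 2 of 32851 windows and in 0 of the 7.

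The other motif searches, on both strands, gave few matches. TGAGTCA, the core bound by AP-1 and by BACH and small Maf pairs, was in 0 of the 7 windows, against 5.2% of all windows. It can overlap the form with 1 free base. TGACNNNGC, the core of the antioxidant response element, was in 1 of 7, that of Scarb2, against 12.4% of all. GAGGAAGT, a PU.1 motif, was in 0 of 7, against 3.2%. The single core TGCTGA, contained in the paired forms and also added after the sequences were seen, was in 4 of 7 windows (Cd5l, Cd36, Scarb2 and Stab1), against 19.5% of all. A match to letters describes the window only, and none of these matches was tested for binding.

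Levels are log2 of the processed signal minus the 75th percentile of the same array, so 0 marks that percentile and 1 unit is a doubling. Each gene is represented by its brighter probe. That 75th percentile was 1369.7, 1032.6 and 2664.2 in knockout replicates 1 to 3, and 1527, 1438.1 and 763.9 in wild-type replicates 1 to 3. The share of spots that the scanner software called well above background was 38.9% to 46.2% on knockout arrays and 37.5% to 51.5% on wild-type arrays. Of the 10 genes, 8 were well above background on all 6 arrays, Stab1 on 2 and Colec12 on none.

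**Figure D1:**
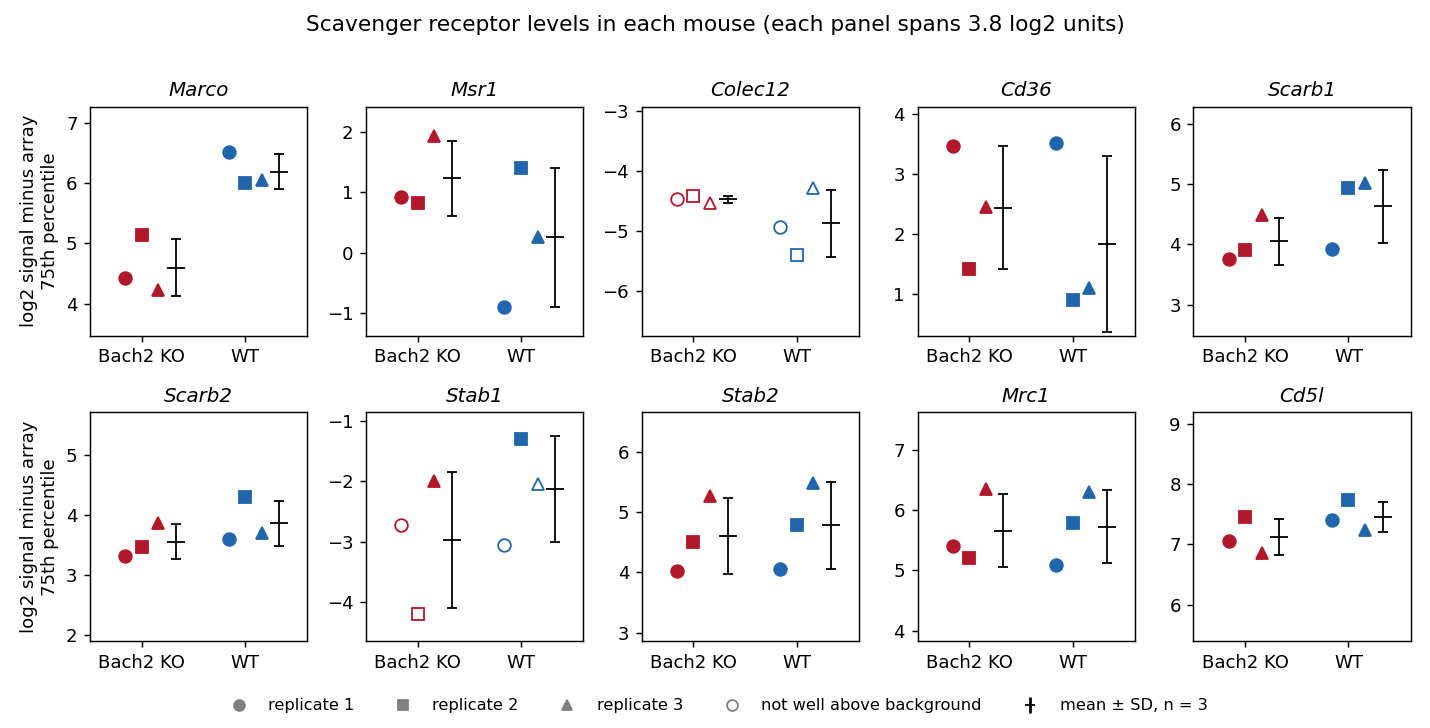
Scaled log2 level (vertical axis, 0 at the 75th percentile of the array) of the 10 genes in 3 Bach2 knockout mice (red, left) and 3 wild-type mice (blue, right), with the mean ± SD at the right of each group. Open symbols were not well above background. Marco is the gene whose genotypes do not overlap, between 4.22 and 5.14 in knockout and between 6 and 6.52 in wild type.

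Marco encodes a class A receptor that binds bacteria and inert particles, and all 3 knockout mice read below all 3 wild-type mice. It read 4.43, 5.14 and 4.22 in knockout replicates 1 to 3, against 6.52, 6 and 6.05 in wild-type replicates 1 to 3. The averages were 4.6 ± 0.48 in knockout and 6.19 ± 0.29 in wild type (SD, n = 3 each), a log2 difference of -1.59 ± 0.62 (limma SE), or 3.02-fold lower in knockout. Since Marco was picked for this difference, no test is attached to it. The gap between the lowest wild-type and the highest knockout mouse was 0.85.

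In the deposited table of the authors, the centred Marco values were -1.143, -0.432 and -1.361 in knockout and 0.958, 0.432 and 0.482 in wild type. All 6 thus lie on the same side as in the scanner values. Before any scaling between arrays, the processed signal of the Marco probe was 29435, 36494 and 49639 in knockout and 140305, 91837 and 50628 in wild type. On that unscaled signal the genotypes were still apart, but only by 0.03 log2 units, since wild-type replicate 3 was the dimmest array and knockout replicate 3 the brightest. The arrays stood on 1 slide, with knockout RNA in row 2 and wild-type RNA in row 1, and effects of row and of genotype cannot be told apart. Within array columns 1, 2 and 3, each holding 1 mouse of each genotype, the Marco difference was -2.1, -0.85 and -1.83.

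As a background, 1.85% of the 55547 probes with a value on every array were lower in all 3 knockout mice without overlap, and 0.684% were higher in the same way. Among the 23041 probes well above background on at least 3 arrays these shares were 1.89% and 1.2%. Among the 10 genes, 1 (Marco) was lower without overlap and 0 were higher. Across all 55681 probes limma called 0 higher and 0 lower at an adjusted p under 0.05, 0% in each direction, and 292 higher and 236 lower at an unadjusted p under 0.05. Among 17343 probes well above background on every array, 63 (0.363%) were at least 3-fold lower in knockout, the Marco probe being one of them. These shares are a description, because the contrast itself brought Marco into the list.

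Marker levels of red pulp macrophages and of other cells are given beside Marco. Fewer cells of a type and less RNA per cell cannot be told apart in such bulk samples. Of the 11 listed red pulp macrophage markers, 10 had a named probe (Cd68 did not). All 10 were well above background on every array and all 10 lay below 0 under each scaling tried, with a median log2 difference of -0.46 (-0.06 with quantile normalization). Most of them have a mean level of 6 or more, and of all 1460 probes at such levels 1391 lay below 0, so the count is near that background. Adgre1, a surface marker of macrophages, and Slc40a1 (ferroportin) were the genes without overlap, by margins of at most 0.02, and the markers' summed level (signals in units of the array's 75th percentile) was 926 to 1088 in knockout and 1054.2 to 2189.3 in wild type. Such sums, here and below, add signals that are not logged, so the brightest genes of a list weigh most. For marginal zone macrophages, Cd209b (SIGN-R1) was well above background on 1 knockout and 1 wild-type array. Siglec1 (CD169), of metallophilic macrophages, differed by -0.02 ± 0.7 (SE), and the summed level of this pair was 0.7 to 2.2 in knockout and 0.8 to 2.1 in wild type.

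NK, T cell and neutrophil markers lay on the other side of 0 from Marco under each scaling tried. All 6 NK and cytotoxic cell markers lay above 0, and Gzma, Gzmb and Nkg7 did not overlap, with a summed level of 96.2 to 329.6 in knockout and 33.2 to 58.1 in wild type. All 5 T cell markers lay above 0, and Lck and Zap70 did not overlap, with sums of 18.2 to 70.8 in knockout and 9.6 to 27.4 in wild type. All 6 neutrophil markers lay above 0, Ltf and Ngp without overlap, with sums of 96.6 to 412.6 in knockout and 38.7 to 266.5 in wild type. The adjusted limma test called 0 genes of any of these lists, and at an unadjusted p under 0.05 it gave 2 of the NK list, 2 of the T cell list and 1 of the neutrophil list. Over all 55681 probes, 292 were higher at that unadjusted threshold. Of the 23041 probes well above background on at least 3 arrays, 1.2% were higher without overlap. The lists were chosen with earlier results of these data known, so these counts are a description. Medians for the other leukocyte lists were 0.09 for B cells, 0 for dendritic cells and 0.52 for monocytes, where F13a1 stood on the other side at -1.64 ± 0.91 (SE). The part of these cells in the Marco difference was not tested.

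Genes whose levels over the 6 mice ran most like Marco were sought among 9525 other named genes well above background on every array. The 8 closest by Pearson correlation were Dand5 (0.954), Fbxw7 (0.944), Zbtb7a (0.94), Nploc4 (0.92), St3gal3 (0.909), Folr1 (0.892), Dnajb13 (0.891) and Psmb7 (0.89). Of all genes compared, 5 reached 0.9. Fbxw7 is the substrate receptor of a ubiquitin ligase, Zbtb7a a transcription repressor, Folr1 a folate receptor and Psmb7 a subunit of the proteasome. Psmb7 read 1.7, 1.37 and 1.19 in knockout, against 2.68, 2.21 and 2.74 in wild type. Folr1 read -2.04, -1.58 and -2.34 in knockout, against -0.78, -0.15 and -1.07 in wild type. Except for Dnajb13 the genotypes did not overlap, which likeness to Marco makes likely, and with only 6 arrays these values are a description.

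**Figure D2:**
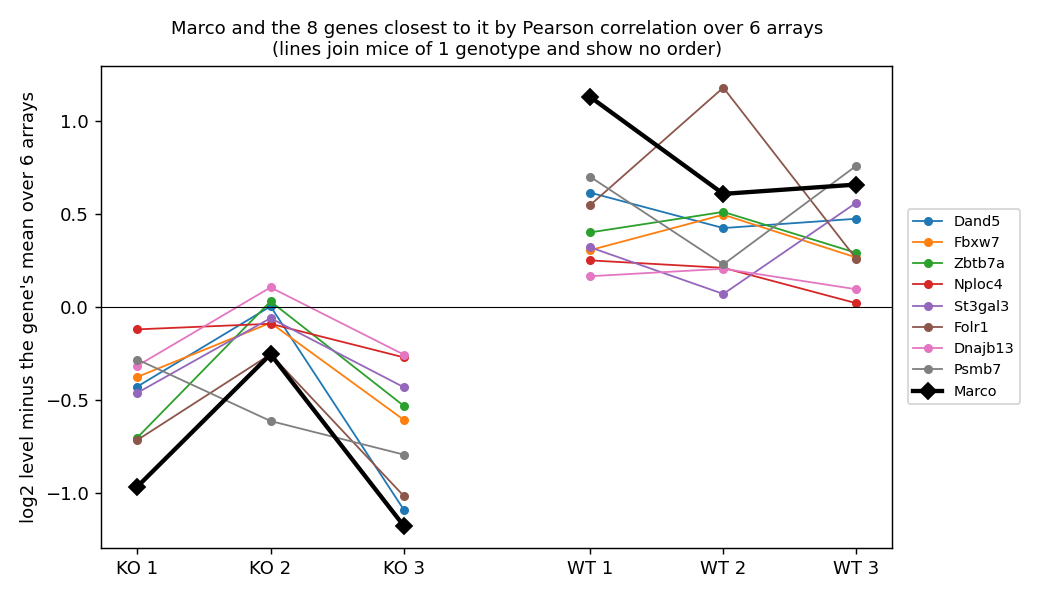
Log2 level of Marco (black) and of its 8 closest genes, each minus its mean over 6 arrays (vertical axis), in 3 Bach2 knockout mice (left) and 3 wild-type mice (right). Marco spans 2.3 log2 units, and knockout replicate 2 is the highest knockout mouse for Marco and for each of the 8 genes but Psmb7.

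The genotypes of the other class A genes overlapped. Msr1, the macrophage receptor for modified low density lipoprotein, read 0.92, 0.82 and 1.94 in knockout replicates 1 to 3, against -0.9, 1.41 and 0.25 in wild-type replicates 1 to 3. Wild-type replicate 1 was the lowest mouse and wild-type replicate 2 lay among the knockout mice. Msr1 averaged 1.23 ± 0.62 in knockout and 0.25 ± 1.16 in wild type (SD, n = 3 each), a log2 difference of 0.98 ± 0.74 (SE). It was 0.4 without wild-type replicate 1, 0.62 without knockout replicate 3 and 1.56 without wild-type replicate 2. Its second probe, well above background on 2 of 6 arrays, gave -0.39 ± 0.63 (SE), the opposite sign. In array columns 1, 2 and 3 the brighter probe differed by 1.82, -0.59 and 1.7. Colec12, a collectin with a class A stem found mainly on endothelium, stayed at background in all 6 mice, between -4.53 and -4.41 in knockout and between -5.39 and -4.28 in wild type, so no fold is given.

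Among the CD36 family, Cd36 itself varied more between mice than between genotypes. Cd36, a receptor for fatty acids, oxidised lipoprotein and thrombospondin, read 3.46, 1.42 and 2.45 in knockout replicates 1 to 3. In wild-type replicates 1 to 3 it read 3.52, 0.91 and 1.1. Replicate 1 was the highest mouse of each genotype, and the 2 differed by only -0.06. The averages were 2.44 ± 1.02 in knockout and 1.84 ± 1.46 in wild type (SD, n = 3 each), a log2 difference of 0.6 ± 0.84 (SE). It was 0.09 without knockout replicate 1, 0.13 without wild-type replicate 2, 0.23 without wild-type replicate 3, 1.11 without knockout replicate 2 and 1.44 without wild-type replicate 1. Cd36 is also carried by erythroid precursors and platelets, and markers of both varied between the mice.

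A pair of erythroid genes was high in the same mice as Cd36, but not every erythroid gene was. Epb42, a protein of the red cell skeleton, read 4.61, 1.62 and 2.18 in knockout and 4.59, -0.15 and 0.61 in wild type. Klf1, the erythroid transcription factor, read 5.74, 4.57 and 1.58 in knockout and 6.02, 1.75 and 2.12 in wild type. In both genotypes replicate 1 was highest for both genes. Hba-a1, an alpha globin, read 8.8, 9.15 and 7.55 in knockout and 8.6, 8.51 and 9.56 in wild type, with its highest values in knockout replicate 2 and wild-type replicate 3. Knockout replicate 3, the second highest knockout mouse for Cd36, was the lowest of its genotype for Klf1.

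All 5 erythroid markers with a named probe (Hbb-bs had none) were well above background on every array, with sums of 245.1 to 751.4 in knockout and 399.1 to 862.1 in wild type. Hba-a1, the brightest of them, weighs most in these sums. In wild type the sum was highest in replicate 3, as was Hba-a1, whereas Klf1 and Epb42 were highest in replicate 1. Of the 4 platelet markers 3 were well above background on every array and Itga2b on none, with sums of 5.3 to 25.7 in knockout and 6.1 to 74.9 in wild type. Pf4 (platelet factor 4) read 2.57, 4.26 and 1.98 in knockout and 5.07, 5.99 and 2.27 in wild type, and so was highest in replicate 2 of each genotype. The part of either cell type in the Cd36 values was not tested, and these genes were set beside Cd36 after their values were seen.

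**Figure D3:**
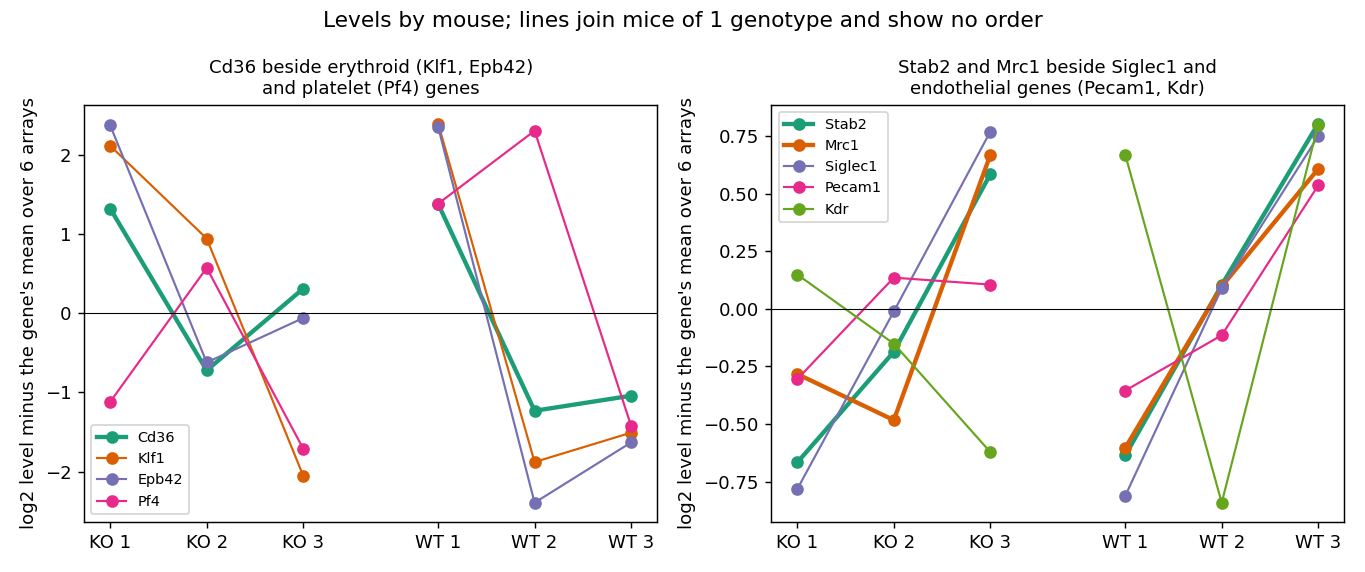
Log2 level minus the gene's mean over 6 arrays (vertical axis) in 3 Bach2 knockout and 3 wild-type mice, for Cd36 with erythroid and platelet genes (left) and for Stab2 and Mrc1 with Siglec1 and endothelial genes (right). Thick lines mark the scavenger receptors. Cd36 is highest in replicate 1 of each genotype (3.46 in knockout and 3.52 in wild type before centring), and Stab2, Mrc1 and Siglec1 in replicate 3 of each.

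Scarb1 and Scarb2 were modestly lower on average in knockout, with overlap. Scarb1 (SR-BI), the receptor for high density lipoprotein, read 3.75, 3.91 and 4.49 in knockout replicates 1 to 3, against 3.92, 4.93 and 5.02 in wild-type replicates 1 to 3. The averages were 4.05 ± 0.39 in knockout and 4.63 ± 0.61 in wild type (SD, n = 3 each). Its probes gave -0.57 ± 0.64 and -0.72 ± 0.65 (SE), the same sign, and both were below 0 in all 3 array columns, between -1.06 and -0.17. Wild-type replicate 1 lay within the knockout range for the brighter probe.

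Scarb2 (LIMP-2), an abundant protein of the lysosomal membrane, read 3.31, 3.47 and 3.87 in knockout replicates 1 to 3. In wild-type replicates 1 to 3 it read 3.6, 4.29 and 3.69. Knockout replicate 3 lay above 2 of the 3 wild-type mice, and the difference was -0.31 ± 0.62 (SE).

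The stabilins differed from each other in detection. Stab2, a hyaluronan and heparin scavenger, read 4.02, 4.5 and 5.27 in knockout replicates 1 to 3, against 4.05, 4.79 and 5.49 in wild-type replicates 1 to 3. The genotypes overlapped almost wholly, at 4.6 ± 0.63 in knockout and 4.78 ± 0.72 in wild type (SD, n = 3 each), a difference of -0.18 ± 0.67 (SE). The differences within array columns, -0.03, -0.29 and -0.22, were all smaller than the spread of 1.24 among knockout mice and of 1.44 among wild-type mice. Stab1, which clears acetylated lipoprotein and the matrix protein SPARC, was well above background on 1 knockout and 1 wild-type array. It read -2.72, -4.21 and -2 in knockout and -3.05, -1.3 and -2.04 in wild type, mostly at background, so its difference of -0.85 ± 0.76 (SE) carries little information. Leaving out 1 mouse moved it between -1.33 (knockout replicate 3) and -0.23 (knockout replicate 2).

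Stab2 is best known from sinus endothelium, and endothelial markers were read beside it. Of 10 such genes, 4 (Plvap, Vwf, Kdr and Pecam1) were well above background on all arrays. The 3 that were so on none were the lymphatic and sinusoidal marker Lyve1 and the vascular markers Emcn and Tie1. The summed level of all 10 was 13.9 to 26.3 in knockout and 15.5 to 29.3 in wild type. Kdr, the main receptor of vascular endothelial growth factor, read 0.81, 0.51 and 0.04 in knockout and 1.33, -0.18 and 1.46 in wild type. Pecam1 (CD31), which leukocytes also carry, read -0.08, 0.36 and 0.33 in knockout and -0.13, 0.11 and 0.76 in wild type. The other genes well above background on all arrays were brighter. Vwf read 1.95, 2.75 and 2.61 in knockout and 3.37, 3.24 and 2.54 in wild type. Plvap read 4.24, 1.89 and 2.31 in knockout and 2.2, 1.69 and 4.21 in wild type. The part of endothelial cells in the Stab2 values was not tested. Siglec1, a macrophage gene, read -0.51, 0.26 and 1.04 in knockout and -0.54, 0.36 and 1.02 in wild type. In both genotypes Siglec1 thus had the same order of replicates as Stab2. Other genes also had this order in both genotypes, among them Scarb1, Lrp1 and the red pulp macrophage marker Spic. The share of all probes with this order was not counted.

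Mrc1 (CD206), the mannose receptor that takes up glycoproteins with mannose or sulphated sugars, showed no separation of the genotypes. It read 5.41, 5.21 and 6.36 in knockout replicates 1 to 3, against 5.09, 5.79 and 6.3 in wild-type replicates 1 to 3. Averages were 5.66 ± 0.61 in knockout and 5.73 ± 0.61 in wild type (SD, n = 3 each), a difference of -0.07 ± 0.66 (SE) with either sign among the array columns. Replicate 3 was the highest mouse of both genotypes for Mrc1, Stab2 and Scarb1. The labels give these 2 mice the same animal tag, whose meaning is not stated, and their arrays share column 3.

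Cd5l, also called AIM, is a secreted protein of tissue macrophages with scavenger-type cysteine-rich domains, known to inhibit macrophage death and to bind CD36. It read 7.05, 7.45 and 6.85 in knockout replicates 1 to 3, against 7.4, 7.73 and 7.24 in wild-type replicates 1 to 3. Knockout replicate 2 lay above both wild-type replicates 1 and 3, so the genotypes overlapped. The averages were 7.12 ± 0.3 in knockout and 7.46 ± 0.25 in wild type (SD, n = 3 each), a difference of -0.34 ± 0.61 (SE). Its difference was nearly the same in each array column, at -0.35, -0.28 and -0.4. The 1460 probes with a mean level of 6 or more had the same median difference, -0.34, made up of -0.03, -0.05 and -0.87 in columns 1, 2 and 3. The processed signal of Cd5l, at most 307084, stayed below the highest signal of every array, which was at least 542523, and spanned 2.65-fold over the arrays.

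**Figure D4:**
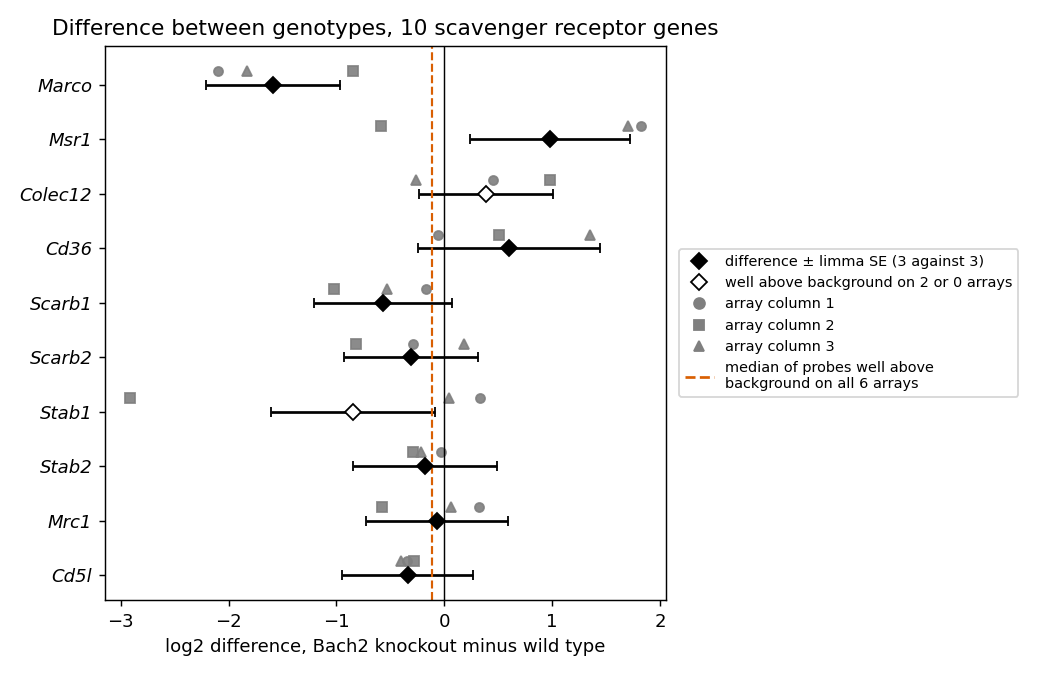
Log2 difference between Bach2 knockout and wild type (horizontal axis) for the 10 genes, with limma SE (diamonds, 3 mice against 3) and the difference within each array column (grey). Open diamonds mark Stab1 and Colec12, and the dashed line the median of -0.11 over probes well above background on all arrays. Marco is at -1.59, and for most of the other genes the SE bar crosses 0.

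Taken over the list, 7 of the 10 genes lay below 0 and 3 above, with a median log2 difference of -0.24. Of all probes 43.4% lay below 0, and of probes well above background on at least 3 arrays 61.1% did. Of the 8 members well above background on every array, 6 lay below 0, and the median of all such probes was -0.11. Marco, Scarb1, Stab2 and Cd5l were below 0 in all 3 array columns, though quantile normalization put Stab2 at 0.01 and Cd5l at 0.03, and no member was above 0 in all 3. Stab2 differed by only -0.03 in column 1. The share of all probes below 0 in all 3 columns was not counted. With quantile normalization 4 of 10 lay below 0 and the median of the members was 0.02, so the list has no direction that holds across scalings. Marco, Scarb1, Scarb2 and, where it was kept, Stab1 stayed below 0 in every setting tried, and Msr1 and Cd36 stayed above 0 in every one. These settings reuse the same 6 mice, and among them the column block and the filter on dim probes repeat the main differences by design. Cd36 fell as low as 0.09, and the second probe of Msr1 alone gave -0.39.

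Other scavenger receptors and mannose receptor relatives were mostly not expressed at a measurable level. Of 16 listed, 15 had a named probe (Cd68 did not), 2 were well above background on all arrays and 7 on none, among them Olr1 (LOX-1), Scara3 and Ly75. The limma test called 0 of 15 higher and 0 lower, with 0 at an unadjusted p under 0.05, and no gene had genotypes without overlap. The largest differences among those well above background on at least 3 arrays belonged to Pla2r1, a phospholipase receptor of the mannose receptor family, at 1.42 ± 0.85, and Cd163, the hemoglobin receptor, at -1.29 ± 0.78 (SE). Cd163 was well above background on 1 of 3 knockout and 3 of 3 wild-type arrays, and Pla2r1 on 3 of 3 knockout and 2 of 3 wild-type arrays. Lrp1, a large endocytic receptor for apolipoprotein E and protease complexes, read 3.06, 3.76 and 4.65 in knockout and 3.62, 3.8 and 4.3 in wild type, so the genotypes overlapped.

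Partners and adaptors of these receptors were well above background in most cases, 15 of 19 on all arrays. None was called in either direction (limma, 0 of 19 also at an unadjusted p under 0.05), 13 lay below 0 and 5 above (8 and 11 with arrays centred on their median), and none had genotypes without overlap. The largest differences were those of Gulp1, an adaptor that binds the tails of Stab1 and Lrp1, at -0.56 ± 0.63, and Apoe, a lipoprotein ligand, at -0.52 ± 0.66 (SE). Gulp1 was dim, well above background on 1 of 3 knockout and 2 of 3 wild-type arrays. Cd14 and Tlr2, which cooperate with Marco and Cd36 in sensing bacteria, differed by -0.42 ± 0.63 and -0.11 ± 0.65 (SE).

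Known regulators of the member genes were all well above background on every array, 12 of 12. The limma test called 0 in either direction, 0 also at an unadjusted p under 0.05, with 10 below 0 and 2 above (7 and 5 with quantile normalization) and a median of -0.35. Rxra, the partner of LXR and PPAR receptors, read -1.12, -0.62 and -0.32 in knockout, against -0.31, 0.17 and -0.09 in wild type, and was the 1 gene without overlap, by a narrow margin of 0.01. Nr1h3 (LXR alpha), which induces Cd5l, differed by -0.49 ± 0.62, and Pparg, which induces Cd36, by -0.07 ± 0.64 (SE). Nfe2l2 (Nrf2), which induces Marco and Cd36, differed by 0.03 ± 0.68 (SE).

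Bach2 itself read -2.24, -3.72 and -1.15 in knockout and -0.9, 0.02 and -1.35 in wild type on its brighter probe, with knockout replicate 3 above wild-type replicate 3. Where that probe lies with respect to the deletion is not given in the sources used here, so it does not check the labels.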

How the data were processed

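RNA of 6 mice was hybridised to Agilent single-colour mouse arrays. The authors read each array with Agilent Feature Extraction, version 10.7.3.1 per the file headers and 9.1 per the submitters' processing notes. The deposited intensity values are background subtracted and detrended within an array, per the file headers, and not normalized between arrays. The authors' deposited log2 table of 279 probes holds Marco only among the members. Its values differ from the centred scanner values by at most 0.153.

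Outlier-flagged spots (141 to 283 per array) were removed, no spot was saturated, spots of a probe were averaged, and log2 signal was scaled to the 75th percentile over probes. Probes were named by RefSeq accession (GRCm38), 26413 of 55681, and the other 29268 stay unnamed. Every probe was kept and fitted with limma 3.58.1 in R 4.3.3 (lmFit, eBayes, Benjamini-Hochberg). Its SE uses each probe's own variance drawn toward a value common to all probes, many of them dim. For steady genes this SE exceeds the spread of their own mice. Groups came from the genotype label, and replicate numbers from record order. Members and lists were chosen with earlier results of these data known. Named genes are the members, Bach2, in each list the genes without overlap or, where there were none, the 2 with the largest differences, and the 8 genes most like Marco. Other genes named, and which lists' genes are named at all, were chosen after their values were seen. The number of arrays limits the precision. The fit was tested on simulated data.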

Additional observations from a re-analysis of the deposited data

How the results depend on the processing

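Every value rests on 3 mice against 3. Centring on the median, quantile normalization, normexp, a filter on dim probes, array column as a block, leaving out each mouse and leaving out both mice of the shared animal tag were tried. Normexp was run on median signals, since no mean signal was used here. The Marco difference lay between -1.87 and -1.41 over these settings and the authors' deposited table, where it was -1.6. Leaving out 1 mouse gave between -1.87 (knockout replicate 2) and -1.41 (knockout replicate 3). The gap between the genotypes of Marco, an addition made after seeing the data, was 0.53 to 0.87 with each scaling and 0.03 with none. With quantile normalization 4 of the 10 genes lay below 0, in place of 7, and Cd5l stood at 0.03. With normexp 1 probe was called higher and 2 lower, none of them with a gene name, and every other setting called 0. The median over all probes was 0.1, and between -0.29 and 0.44 under the alternatives, -0.29 without wild-type replicate 2 and 0.44 without both tagged mice. Cd36 lay between 0.09 and 1.44, Msr1 between 0.29 and 1.56, Stab1 between -1.33 and -0.23, Mrc1 between -0.42 and 0.26, Stab2 between -0.54 and 0.17, and Scarb1 between -0.92 and -0.38. The causes were not tested. The labels number no mice across genotypes and share only 1 animal tag, so the paired fit used array column as the block. It called 0 probes and gave 417 higher and 153 lower at an unadjusted p under 0.05. With 1 array of each genotype per column, this block cannot change the difference of a probe read on every array. The Marco difference thus stayed at -1.59 by design. The filter on dim probes likewise cannot change the difference of a probe that it keeps.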

Other observations

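Deviations of the arrays from their genotype means were compared over 17343 probes well above background on every array. Only the arrays of slide column 1 stood out as deviating together. The Pearson correlation across probes, which are not independent replicates, was 0.71 between knockout and wild-type replicates 1, 0.19 between replicates 2 and 0.27 between replicates 3. Pairs from different columns gave values from -0.59 to 0.33, the highest between knockout replicate 3 and wild-type replicate 2. That highest value lay above those of columns 2 and 3. Among single genes, Cd36 was highest in replicate 1 of both genotypes and Stab2 in replicate 3 of both. Marco was highest in knockout replicate 2 and in wild-type replicate 1. Whether column, animal tag or another shared step lies behind the shared deviations was not tested.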
